A study of Mus musculus with 40 samples.

Results

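Negative feedback on TGF-beta signalling was followed in 40 mouse lung libraries through 9 genes: Smad6, Smad7, Ski, Skil, Tgif1, Smurf1, Smurf2, Pmepa1 and Bambi. They were taken by name from a list of SMAD feedback and inhibitor genes, chosen with earlier results of these data known. All 9 were found among the 55536 genes of the count tables and passed the low-count filter. The study asked what saracatinib, an inhibitor of Src family kinases, does in a pair of mouse models of pulmonary fibrosis. In the first, C57BL/6 mice received 1.5 U/kg bleomycin, a DNA-damaging drug, or saline by the oropharyngeal route. In the second, they received an adenovirus that carries mouse Tgfb1 behind the CMV promoter (Ad-TGF-β1), or an empty vector, through the nose. In both, saracatinib at 20 mg/kg or vehicle was given by daily gavage from day 10 to day 27, or 18 days of treatment, and left lungs were taken on day 28. This gives 8 groups of 5 libraries, from mice of both sexes whose ages are not given in the sources used here. Uninjured mice of each model had the same gavage as the injured ones, and every mouse of the second model carried an adenoviral vector. The labels do not say whether each library is a separate mouse, so the p-values measure the spread between these libraries.

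TGF-beta and BMP ligands bind paired serine/threonine kinase receptors that phosphorylate SMAD proteins, which then join SMAD4 and regulate genes in the nucleus. Cells limit the signal at each step. Inhibitory SMADs (Smad6 and Smad7) occupy the receptors, Smurf ligases attach ubiquitin to SMADs and receptors, Pmepa1 holds SMADs at membranes, Bambi is a receptor without a kinase, and Ski, Skil and Tgif1 repress SMAD target genes on chromatin. Several of these genes are themselves switched on by the pathway. In the lung, TGF-beta is known for driving matrix production by fibroblasts, while BMP signalling through Acvrl1 and Eng is known for its role in endothelium.

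RefSeq promoter windows on GRCm38.p6 were found for 5 of the 9 genes, Ski, Smad6, Smurf1, Smurf2 and Tgif1. The 250 bases before the start are printed for Smurf1 and Smurf2, paralogous ligases that moved in opposite directions after bleomycin, and for Smad6, which fell beside Smurf2. All 3 genes are on the minus strand, and the sequences read 5′ to 3′ towards the gene. The windows are chr5:144965831-144966080 for Smurf1, chr11:106920716-106920965 for Smurf2 and chr9:64022060-64022309 for Smad6. Capitals mark CAGAC or its complement GTCTG, the core of the SMAD binding element, and GGCGCC, a GC-rich SMAD site.
Smurf1: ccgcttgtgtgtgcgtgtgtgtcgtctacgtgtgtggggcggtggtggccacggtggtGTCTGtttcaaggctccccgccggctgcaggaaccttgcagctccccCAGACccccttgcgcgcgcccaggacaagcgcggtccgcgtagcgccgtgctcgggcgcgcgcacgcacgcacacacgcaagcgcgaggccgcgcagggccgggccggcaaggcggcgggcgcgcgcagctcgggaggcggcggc
Smurf2: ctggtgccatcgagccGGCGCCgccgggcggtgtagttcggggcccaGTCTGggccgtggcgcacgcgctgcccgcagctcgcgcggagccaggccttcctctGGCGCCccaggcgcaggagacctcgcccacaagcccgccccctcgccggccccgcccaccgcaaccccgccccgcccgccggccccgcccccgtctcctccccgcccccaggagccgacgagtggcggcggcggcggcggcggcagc
Smad6: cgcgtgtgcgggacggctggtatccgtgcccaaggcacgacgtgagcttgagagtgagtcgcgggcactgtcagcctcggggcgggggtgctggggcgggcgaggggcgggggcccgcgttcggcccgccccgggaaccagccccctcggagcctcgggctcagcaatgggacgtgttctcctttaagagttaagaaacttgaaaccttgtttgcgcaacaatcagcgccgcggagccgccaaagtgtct
The Smurf1 window holds 2 CAGAC or GTCTG matches, from 192 and 145 bases before the start. The Smurf2 window holds 1, from 203 bases before the start, and 2 GGCGCC matches, from 234 and 147 bases before it. The Smad6 window holds none of these, and the palindrome GTCTAGAC is in none of the 3. Both strands were searched, and none of the motifs contains another. Of 32851 mouse promoter windows of the same length, 42.2% hold CAGAC or GTCTG, 9.59% hold GGCGCC and 0.167% hold GTCTAGAC, so a CAGAC match is common. A match is a run of letters and no evidence of binding.

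All 9 are protein-coding genes in GENCODE M21 on the mouse build GRCm38. Smad6 (ENSMUSG00000036867) lies on chromosome 9 from 63953076 to 64022059, and Smad7 (ENSMUSG00000025880) on chromosome 18 from 75367529 to 75395935. Ski (ENSMUSG00000029050) lies on chromosome 4 from 155154075 to 155222592, Skil (ENSMUSG00000027660) on chromosome 3 from 31095058 to 31122577, and Tgif1 (ENSMUSG00000047407) on chromosome 17 from 70844205 to 70853546. Smurf1 (ENSMUSG00000038780) lies on chromosome 5 from 144876495 to 144965847, and Smurf2 (ENSMUSG00000018363) on chromosome 11 from 106820066 to 106920715. Pmepa1 (ENSMUSG00000038400) lies on chromosome 2 from 173224458 to 173276533, and Bambi (ENSMUSG00000024232) on chromosome 18 from 3507923 to 3516404. Reads were summed over whole genes, so exons and untranslated regions cannot be separated. Among the exons of the 9, only those of Smurf2 share bases with another annotated gene, 58 bases with the microRNA gene Gm27322 on the same strand.

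Libraries held 8812233 to 17336972 counts. The adenovirus label was checked by Tgfb1, which rose in Ad-TGF-β1 vehicle lungs by a log2 fold change of 1.71 ± 0.15 (edgeR adjusted p = 4.73e-06). Levels are counts per 1000000 (CPM) after TMM scaling over all libraries. Called means an adjusted p under 0.05 in edgeR's quasi-likelihood test over all genes tested, and changes are log2 fold changes ± SE from that test. Bleomycin vehicle library 3 had the lowest scaling factor of all (0.909) and the highest summed level in its group of genes of activated fibroblasts (5064 CPM against 2277 to 3333) and of macrophages (1073 against 605 to 828). Results that turn on it are given with and without it. Whole-lung RNA cannot tell fewer cells of a type from less RNA per cell. Markers of other cells moved too. After bleomycin in vehicle lungs all 8 ciliated genes and 4 of 7 cardiac muscle genes fell, where 20.3% of all genes did. In the same comparison 7 of 8 T cell genes and all 6 genes of transitional alveolar epithelium rose, where 20.6% of all genes did. After Ad-TGF-β1 in vehicle lungs, where 25.8% of all genes were called in either direction, all 8 ciliated and all 6 smooth muscle genes fell. The part of these cells in the results was not tested. Markers of alveolar epithelium, summed, were between 5320 and 10588 CPM in all groups, with none at 0.

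The 9 genes spanned a wide range of levels (the plot of CPM by library and group). Per kilobase of merged exon, the median over the 40 libraries was highest for Ski at 46.2 CPM per kb, followed by Smad6 at 37.4, Smad7 at 31.0 and Smurf2 at 28.1 CPM per kb. Smurf1 (14.4), Pmepa1 (14.2) and Skil (13.7 CPM per kb) lay close together, and Tgif1 (4.94) and Bambi (2.38 CPM per kb) were lowest. The Bambi values rest on 76 to 202 counts per library, and Tgif1 on 220 to 709, while every other member had at least 367.

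**Figure D1:**
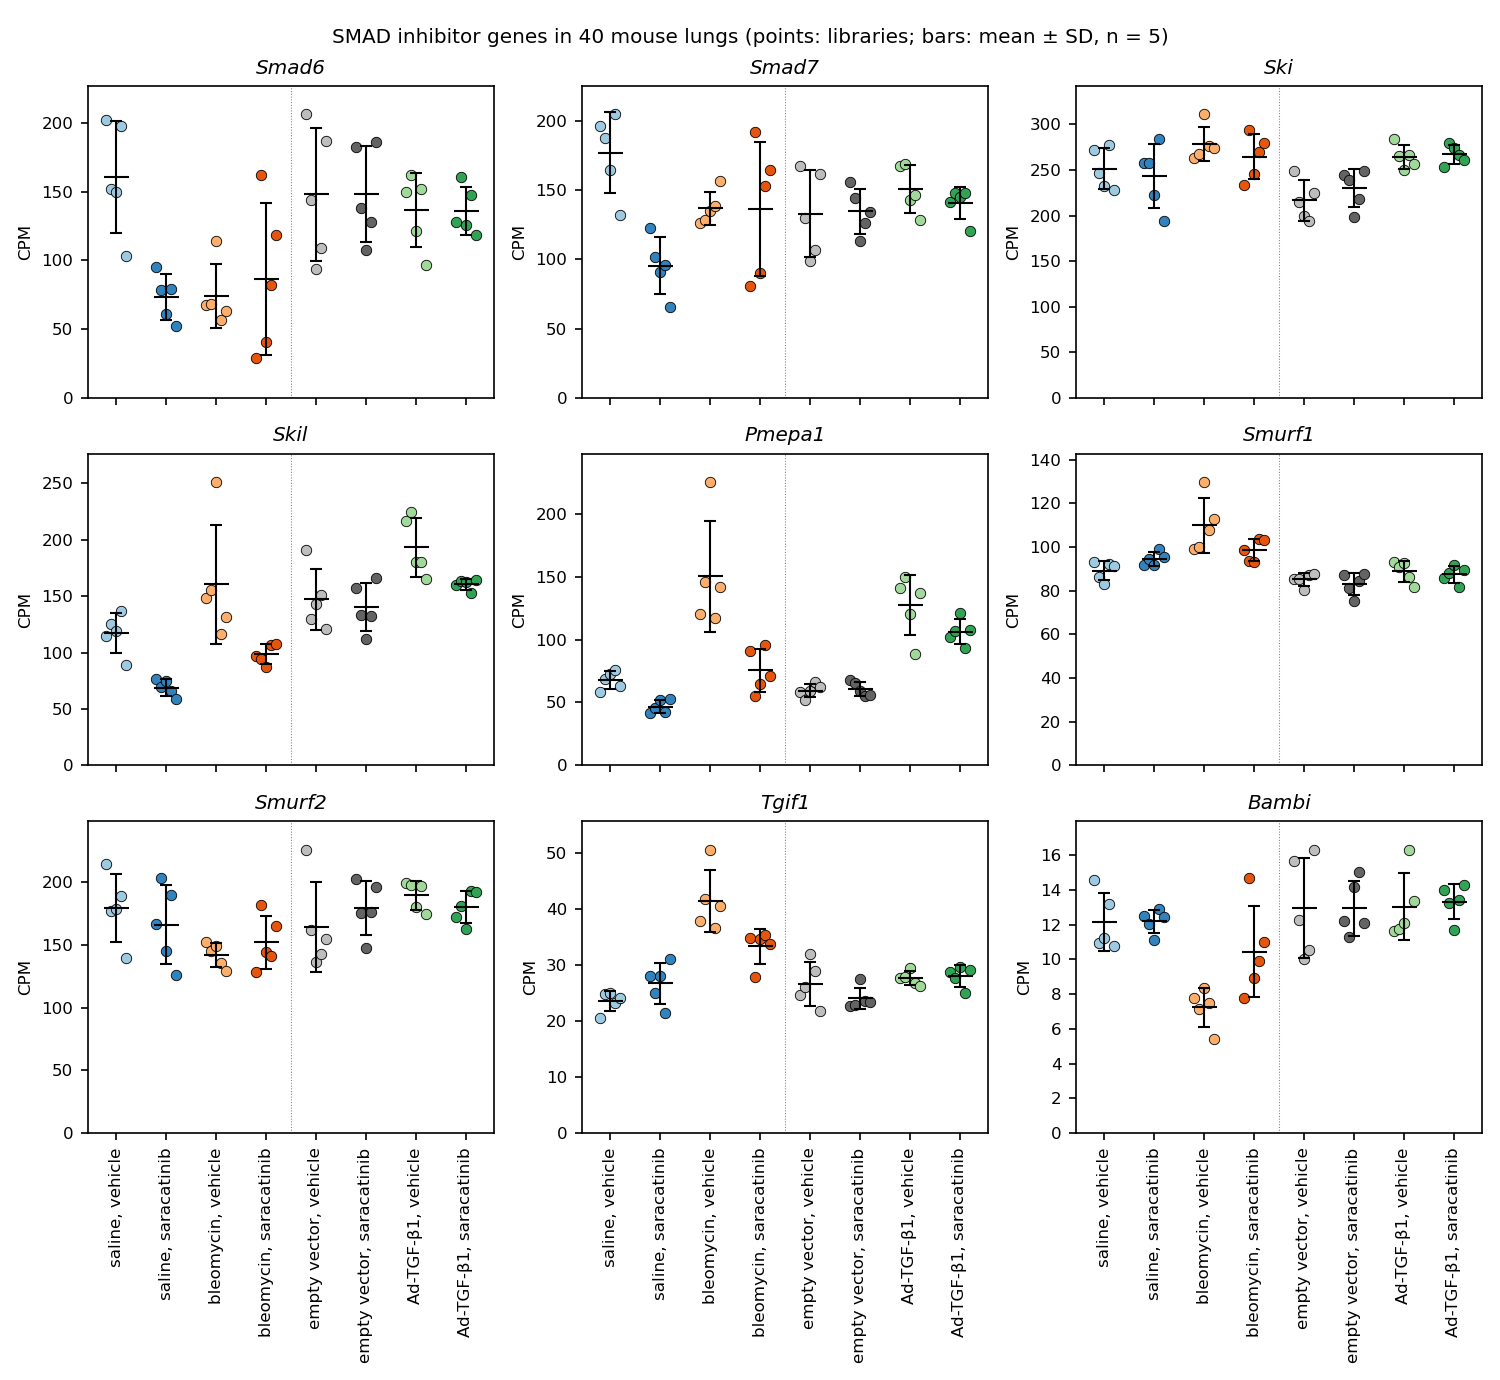
CPM (TMM-scaled) of the 9 genes in each of the 40 libraries, by group on the horizontal axis, with points for libraries and bars for the mean ± SD of 5; each vertical axis starts at 0. Pmepa1 stands higher in both injured vehicle groups than in their controls, Bambi is lowest and Tgif1 highest in bleomycin vehicle lungs, and Smad6 ranges from 28.8 to 162 CPM within the bleomycin saracatinib group.

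In vehicle lungs, bleomycin changed 7 of the 9 genes, where 40.9% of all 18846 genes tested were called. Of the 9, 4 were higher (20.6% of all genes) and 3 lower (20.3%). Pmepa1, Tgif1, Skil and Smurf1 rose, and Smad6, Bambi and Smurf2 fell. The median change of the 9 genes was 0.13, against -0.03 over all genes. In bleomycin lungs saracatinib changed 4 of the 9, where 14.0% of all genes were called. Pmepa1, Skil and Tgif1 fell (8.71% of all genes were lower) and Bambi rose (5.31% were higher). The bleomycin and the saracatinib comparison share the bleomycin vehicle libraries. Without bleomycin vehicle library 3, 6 and 3 of the 9 were called.

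Ad-TGF-β1 changed 3 of the 9 in vehicle lungs, where 25.8% of all 18834 genes were called. Pmepa1, Skil and Ski rose (11.5% of all genes were higher) and none fell. In uninjured and in Ad-TGF-β1 lungs edgeR called no member for saracatinib: 0 of 9 in saline lungs (0.00531% of all genes called), 0 in empty-vector lungs (also 0.00531%) and 0 in Ad-TGF-β1 lungs (0.0903%). At an unadjusted p under 0.05 there were 4, 0 and 2 members in these 3 comparisons. Of all genes there were 1401 of 18846, 2084 of 18834 and 1649 of 18834. DESeq2 called 2 members in saline lungs (Smad7 and Skil), among 47 of all genes, and limma voom, run with quality weights per library, 1 (Skil), among 9. Neither tool called any member in the empty-vector or Ad-TGF-β1 lungs.

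**Figure D2:**
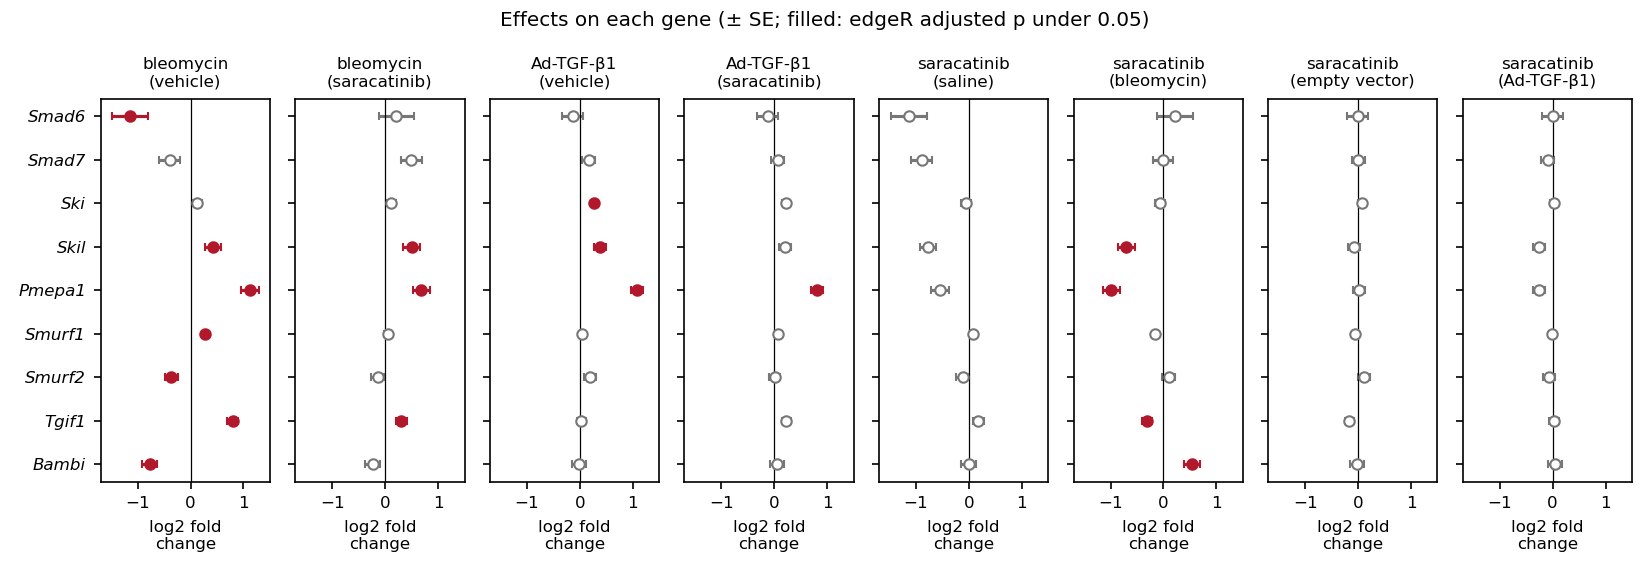
Log2 fold change (horizontal axes) with its SE for each of the 9 genes (vertical axis) in 8 comparisons, injury effects on the left and saracatinib effects on the right; filled red points have an edgeR adjusted p under 0.05. Of the filled points, 7 lie in the bleomycin vehicle panel, 4 in the panel of saracatinib in bleomycin lungs and none in the other saracatinib panels.

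Smad6 and Smad7, the inhibitory SMADs, had their highest group means in saline vehicle lungs and their lowest in saline saracatinib lungs. Values of the 5 libraries of a group are listed from low to high. Smad6, which acts mainly on BMP receptors, stood at 103, 149.7, 152, 198 and 203 CPM in saline vehicle lungs and at 56.4, 62.9, 67.9, 68.4 and 114 CPM in bleomycin vehicle lungs. Every bleomycin value except the highest, that of library 3, lay below the whole saline range. The means were 161 ± 40.8 and 74.0 ± 23.1 CPM (SD, n = 5), and Smad6 fell (log2 fold change -1.15 ± 0.34, edgeR adjusted p = 0.0112), with -1.35 ± 0.36 (adjusted p = 0.00683) without library 3. Bleomycin saracatinib lungs held 28.8, 40.3, 82.1, 119 and 162 CPM, from below the lowest bleomycin vehicle value to within the saline range. Saracatinib in bleomycin lungs was at 0.22 ± 0.34 for Smad6 (adjusted p = 0.706), with a 95% interval from -0.48 to 0.93. In saline saracatinib lungs Smad6 was at 52.2, 61.2, 78.4, 79.3 and 95.6 CPM, all below the saline vehicle values, a difference of -1.14 ± 0.34 that did not pass the adjustment (adjusted p = 0.403). Empty-vector lungs showed no such difference, with a saracatinib effect on Smad6 of -0.01 ± 0.20 (adjusted p = 0.992).

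Smad7, which blocks TGF-beta and BMP receptors alike and brings Smurf ligases to them, had 132, 164, 188, 196 and 205 CPM in saline vehicle lungs and 127, 128, 135, 139 and 156 CPM in bleomycin vehicle lungs. The groups overlapped, and the bleomycin effect of -0.39 ± 0.20 was not called (edgeR adjusted p = 0.12). In a fit of only these 10 libraries it was called, at -0.37 ± 0.11 (adjusted p = 0.0189). Saline saracatinib lungs held 65.8, 91.1, 96.0, 102 and 122 CPM, with all 5 below all 5 saline vehicle libraries. That difference of -0.89 ± 0.20 was not called by edgeR (adjusted p = 0.248) and was called by DESeq2 at -0.89 ± 0.20 (adjusted p = 0.00811). The saracatinib effect on Smad7 in empty-vector lungs was 0.01 ± 0.13 (edgeR adjusted p = 0.987). Bleomycin saracatinib lungs split, at 80.8, 90.4, 153, 165 and 192 CPM, with libraries 1 and 3 low for both inhibitory SMADs. Under saracatinib, bleomycin lungs were 0.49 ± 0.20 above saline lungs in Smad7 (adjusted p = 0.0994), which passed without bleomycin saracatinib library 1 (0.63, adjusted p = 0.0377) or library 3 (0.62, adjusted p = 0.0395), and with the mean level of endothelial markers as a covariate (0.68, adjusted p = 0.00226).

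The saracatinib effect on the inhibitory SMADs was compared between bleomycin and saline lungs by an interaction test, where edgeR called 1.06% of all genes and 0 of the 9. Smad6 was at 1.36 ± 0.48 (adjusted p = 0.139) and Smad7 at 0.88 ± 0.28 (adjusted p = 0.106), each the saracatinib effect in bleomycin lungs less the one in saline lungs. Of the 9, 5 had an unadjusted p under 0.05, as did 3449 of all 18846 genes. DESeq2 called 846 genes and 2 of the 9 (Smad7 at 0.88, adjusted p = 0.0462, and Tgif1 at -0.50, adjusted p = 0.0334). Limma voom called 415 genes and none of the 9. Without bleomycin saracatinib library 1, edgeR called Smad6 (1.58, adjusted p = 0.0411) and Smad7 (1.02, adjusted p = 0.0355). In the adenoviral model edgeR called neither gene. Smad6 ranged from 96.9 to 163 CPM in Ad-TGF-β1 vehicle lungs and from 94.1 to 207 CPM in empty-vector vehicle lungs, a difference of -0.13 ± 0.20 (adjusted p = 0.655). Smad7 ranged from 128 to 169 CPM in Ad-TGF-β1 vehicle lungs and from 98.9 to 168 CPM with empty vector and vehicle, a difference of 0.17 ± 0.13 (adjusted p = 0.347). It was called in this comparison without the pair of libraries farthest from their groups, both of empty vector and vehicle (0.41, adjusted p = 0.00822), and by limma voom (0.36, adjusted p = 0.0172). The libraries left out, 1 and 5, held the highest Smad7 values of that group (168 and 162 CPM).

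Endothelial markers were set beside Smad6 and Smurf2. Of 15 endothelial genes 10 were not called, none rose and 5 fell after bleomycin in vehicle lungs, where 20.3% of all genes fell. The median of the list was -0.37, against -0.03 over all genes, and the fall was led by Ednrb (-1.81) and the VEGF receptor gene Kdr (-0.89). The summed level of the list ran from 2527 to 4686 CPM in saline vehicle lungs and from 2707 to 3533 CPM in bleomycin vehicle lungs, with no marker at 0. With the mean log2 CPM of the list as a covariate, Smad6 was at -0.56 ± 0.26 (edgeR adjusted p = 0.0781) and Smurf2 at -0.10 ± 0.05 (adjusted p = 0.122), neither called, while Ski was called at 0.30 ± 0.06 (adjusted p = 0.000418), and also for saracatinib in bleomycin lungs (-0.17, adjusted p = 0.0286). In saline lungs the same covariate left saracatinib effects of -1.26 ± 0.24 for Smad6 (adjusted p = 0.0365) and -0.98 ± 0.15 for Smad7 (adjusted p = 0.0157), both called, and Skil was called too (-0.80, adjusted p = 0.0338). Summed endothelial markers ranged from 2522 to 5080 CPM in saline saracatinib lungs, none at 0.

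**Figure D3:**
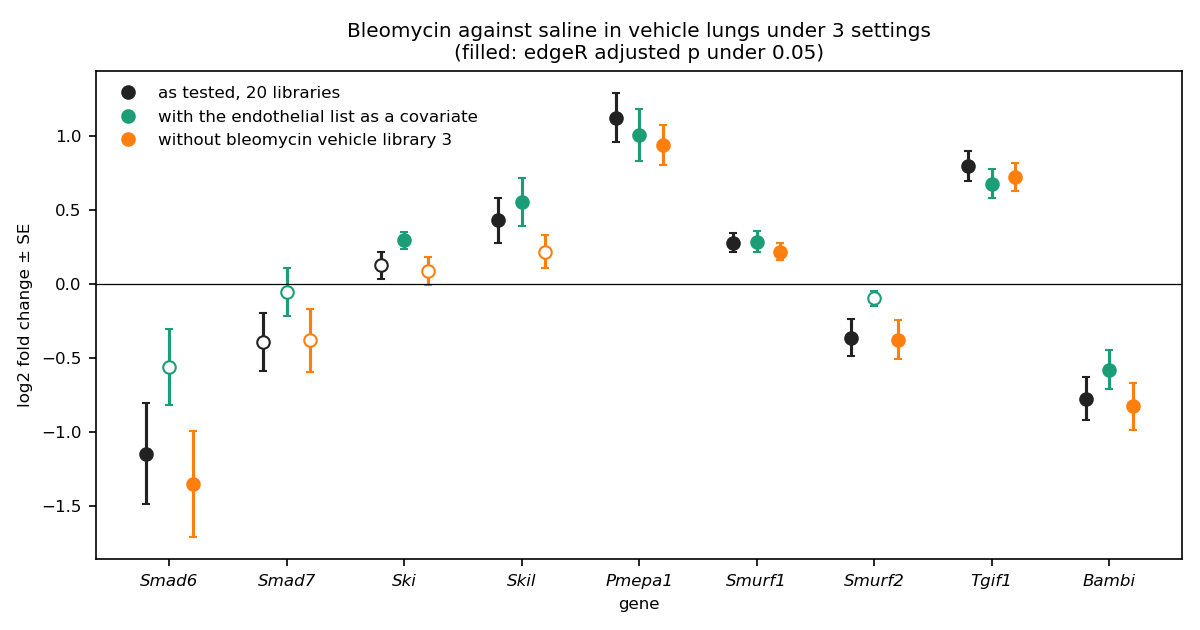
Bleomycin against saline in vehicle lungs for the 9 genes (horizontal axis) as log2 fold change ± SE (vertical axis), as tested, with the endothelial list as a covariate, and without bleomycin vehicle library 3; filled points have an edgeR adjusted p under 0.05. Pmepa1, Smurf1, Tgif1 and Bambi are filled in all 3 settings, Smad6 and Smurf2 are open with the covariate, and Skil is open without library 3.

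Ski, Skil and Tgif1 act on chromatin, where Ski and Skil bind the SMAD complex and recruit histone deacetylases, and Tgif1 is a homeodomain corepressor that also binds SMADs. Ski was not called after bleomycin. Its values were 228, 232, 247, 272 and 278 CPM in saline vehicle and 263, 268, 274, 276 and 311 CPM in bleomycin vehicle lungs, an effect of 0.13 ± 0.09 (edgeR adjusted p = 0.291). In the adenoviral model Ski went from 194, 199, 215, 225 and 249 CPM with empty vector to 249.8, 257, 266, 266 and 284 CPM with Ad-TGF-β1, with the highest value of the first group just under the lowest of the other, and rose by 0.27 ± 0.07 (adjusted p = 0.00652). Under saracatinib the Ad-TGF-β1 effect on Ski was 0.22 ± 0.07 (adjusted p = 0.0954), also without overlap between groups, and was called with the endothelial covariate (0.21, adjusted p = 0.0127) and without the 2 most distant libraries (0.21, adjusted p = 0.0364).

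Skil encodes SnoN, whose protein is destroyed when the pathway is switched on and whose gene is then induced. It had 89.3, 115, 119, 126 and 137 CPM in saline vehicle lungs, 117, 132, 148, 156 and 251 CPM in bleomycin vehicle lungs and 87.1, 94.6, 97.3, 107 and 108 CPM in bleomycin saracatinib lungs. Bleomycin raised Skil by 0.43 ± 0.15 (edgeR adjusted p = 0.0302), although the groups overlapped. The call was lost without bleomycin vehicle library 3 (0.22, adjusted p = 0.134), saline vehicle library 1 (0.42, adjusted p = 0.0522) or saline vehicle library 5 (0.35, adjusted p = 0.0825), and in limma voom (0.20, adjusted p = 0.156), in a fit of only the compared groups (0.45, adjusted p = 0.0697) and without the 2 most distant libraries (0.37, adjusted p = 0.0640). Saracatinib lowered it in bleomycin lungs (log2 fold change -0.70 ± 0.15, adjusted p = 0.00657), with every treated library below every vehicle library, and also without library 3 (-0.49 ± 0.11, adjusted p = 0.0144). In saline saracatinib lungs Skil was at 58.5, 65.5, 69.6, 74.3 and 76.6 CPM, again all below the saline vehicle values. That difference, -0.77 ± 0.16, was as large as in bleomycin lungs but did not pass edgeR's adjustment (adjusted p = 0.181), and passed in DESeq2 (adjusted p = 0.00284) and limma voom (adjusted p = 0.00789). The interaction was 0.07 ± 0.22, with a 95% interval from -0.38 to 0.52. Saracatinib in empty-vector lungs shifted Skil by -0.08 ± 0.11 (edgeR adjusted p = 0.788).

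Under saracatinib, bleomycin lungs still exceeded saline lungs in Skil by 0.50 ± 0.15 without overlap (edgeR adjusted p = 0.0342). Here 16.0% of all genes and 3 of the 9 (Pmepa1, Skil and Tgif1) were called, all higher (7.79% of all genes were). The Skil call was lost when any of saline saracatinib libraries 3, 4 or 5 or bleomycin saracatinib libraries 1, 4 or 5 was left out, with values from 0.44 to 0.53 and adjusted p up to 0.0907, and without the 2 most distant libraries (0.46, adjusted p = 0.0618). Ad-TGF-β1 raised Skil from 121, 130.2, 143, 151 and 191 CPM to 165, 180.1, 180.4, 217 and 225 CPM in vehicle lungs, with overlap. The effect was 0.38 ± 0.11 (adjusted p = 0.0209), lost without Ad-TGF-β1 vehicle library 1 (0.32, adjusted p = 0.0710) or 2 (0.32, adjusted p = 0.0578), or empty-vector vehicle library 2 (0.33, adjusted p = 0.0562) or 5 (0.31, adjusted p = 0.0698). It was also lost with the endothelial covariate (0.25, adjusted p = 0.109) and in a fit of only the compared groups (0.37, adjusted p = 0.0575). Ad-TGF-β1 saracatinib libraries lay at 153, 159, 162, 163 and 165 CPM, the highest just under the lowest vehicle value, a difference of -0.26 ± 0.11 that was not called (adjusted p = 0.524).

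Tgif1 separated bleomycin from saline lungs fully. Its level was 20.6, 23.2, 24.2, 24.8 and 25.0 CPM in saline vehicle lungs and 36.6, 37.9, 40.7, 41.9 and 50.7 CPM in bleomycin vehicle lungs, with no overlap. Tgif1 rose by 0.80 ± 0.10 (edgeR adjusted p = 7.85e-06), and the call held in each fit without 1 library. Bleomycin saracatinib lungs, at 27.9, 33.8, 34.7, 34.9 and 35.5 CPM, lay between and overlapped neither vehicle group. Saracatinib lowered Tgif1 there (-0.31 ± 0.10, adjusted p = 0.0409). This was lost without bleomycin vehicle library 2, 3 or 5 or bleomycin saracatinib library 2, 3 or 5, with values from -0.32 to -0.24 and adjusted p up to 0.137. It was also lost without the low-count filter (-0.33, adjusted p = 0.0566), in limma voom (-0.23, adjusted p = 0.0572) and in a fit of only the compared groups (-0.32, adjusted p = 0.0557). Under saracatinib, bleomycin lungs exceeded saline lungs by 0.30 ± 0.10 (adjusted p = 0.047), lost in 8 of 10 fits without 1 library, those without any saline saracatinib library except 5 or any bleomycin saracatinib library except 2, with values from 0.25 to 0.33 and adjusted p up to 0.104, and also with the endothelial covariate (0.22, adjusted p = 0.0784), without the low-count filter (0.31, adjusted p = 0.0741) and in a fit of only the compared groups (0.31, adjusted p = 0.0847). Saline saracatinib lungs held 21.4, 25.1, 28.1, 28.1 and 31.1 CPM, with a saracatinib effect of 0.18 ± 0.10 in saline lungs (adjusted p = 0.712), and the interaction was -0.49 ± 0.14 (adjusted p = 0.085), called without saline saracatinib library 4 (-0.57, adjusted p = 0.0416) and with the endothelial covariate (-0.46, adjusted p = 0.0489). In the adenoviral model Tgif1 stayed between 21.8 and 32.0 CPM in all 20 libraries, and Ad-TGF-β1 shifted it by 0.03 ± 0.09 (adjusted p = 0.819).

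Smurf1 and Smurf2 are HECT-type ubiquitin ligases that mark SMADs and, with Smad7, receptors for breakdown. Bleomycin moved them in opposite directions. Smurf1 had 83.3, 86.1, 91.2, 92.2 and 93.2 CPM in saline vehicle lungs and 99.1, 99.95, 108, 113 and 129.8 CPM in bleomycin vehicle lungs, with no overlap. It rose by 0.28 ± 0.06 (edgeR adjusted p = 0.00189), and by 0.22 ± 0.06 (adjusted p = 0.00518) without library 3. Smurf2 had 139, 177, 179, 189 and 214 CPM and 129, 135, 145, 149 and 152 CPM in the same groups, which overlapped through the lowest saline library. It fell (log2 fold change -0.36 ± 0.12, adjusted p = 0.0243), a call lost without bleomycin vehicle library 5 (-0.33, adjusted p = 0.0534), saline vehicle library 1 (-0.29, adjusted p = 0.0752) or saline vehicle library 4 (-0.32, adjusted p = 0.0627).

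Neither ligase was called by edgeR for saracatinib in any kind of lung. In bleomycin lungs Smurf1 was at -0.16 ± 0.06 (edgeR adjusted p = 0.103) and Smurf2 at 0.10 ± 0.12 (adjusted p = 0.64). Bleomycin saracatinib lungs had 93.1 to 104 CPM of Smurf1 and 128 to 182 CPM of Smurf2. Smurf1 varied little, with group SDs from 2.93 to 12.5 CPM around means from 83.0 to 110 CPM. In the adenoviral model Smurf2 ranged from 137 to 226 CPM with empty vector and vehicle and from 174 to 200 CPM with Ad-TGF-β1 and vehicle, an effect of 0.19 ± 0.11 (adjusted p = 0.206). The value of 226 CPM came from empty-vector vehicle library 1, without which Smurf2 was called at 0.33 (adjusted p = 0.00236) for Ad-TGF-β1 and at 0.27 (adjusted p = 0.0498) for saracatinib in empty-vector lungs. Limma voom called it for Ad-TGF-β1 too (0.33, adjusted p = 0.00415). Smurf1 was at 0.05 ± 0.05 for Ad-TGF-β1 (adjusted p = 0.511).

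Pmepa1, a membrane protein that keeps SMADs from the receptors and is itself a target of the pathway, was the one member called for both injuries with and without saracatinib. It had 58.5, 63.3, 68.7, 72.6 and 75.8 CPM in saline vehicle lungs, 117, 121, 142, 146 and 226 CPM in bleomycin vehicle lungs and 55.1, 64.8, 71.2, 91.4 and 95.5 CPM in bleomycin saracatinib lungs. Every bleomycin vehicle value lay above both other groups. Bleomycin raised Pmepa1 by 1.12 ± 0.16 (edgeR adjusted p = 2.77e-05), or 2.18-fold, and saracatinib lowered it in those lungs (-0.99 ± 0.16, adjusted p = 0.00207). Without library 3, at 226 CPM, these were 0.94 ± 0.13 (adjusted p = 3.84e-05) and -0.80 ± 0.13 (adjusted p = 0.00447). Under saracatinib, bleomycin lungs still exceeded saline lungs by 0.68 ± 0.16 (adjusted p = 0.00985). Saline saracatinib lungs, at 41.4, 42.3, 45.4, 52.0 and 52.5 CPM, lay wholly below saline vehicle lungs, a difference of -0.55 ± 0.16 that did not pass the adjustment (adjusted p = 0.403). The interaction was -0.44 ± 0.23 (adjusted p = 0.317).

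The adenovirus gave a rise of Pmepa1 of similar size. Pmepa1 had 51.8, 58.1, 58.7, 62.2 and 66.6 CPM with empty vector and vehicle and 88.8, 120.4, 137, 141 and 149.6 CPM with Ad-TGF-β1 and vehicle. It rose by 1.08 ± 0.11 (edgeR adjusted p = 1.7e-05), or 2.12-fold. Under saracatinib the values were 55.2, 56.1, 58.8, 65.8 and 68.1 and 93.7, 102, 107, 107 and 121 CPM, again without overlap. The rise there was 0.81 ± 0.11 (adjusted p = 0.00121), in a comparison where 2.58% of all genes and 1 of the 9 were called (2.21% of all genes as higher). Saracatinib against vehicle gave -0.26 ± 0.11 in Ad-TGF-β1 lungs (adjusted p = 0.515) and 0.02 ± 0.11 in empty-vector lungs (adjusted p = 0.96). In the interaction of saracatinib with Ad-TGF-β1, edgeR called 0% of genes and 0 of the 9, none had an unadjusted p under 0.05, and DESeq2 and limma voom called none of the 9.

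Genes of activated fibroblasts were set beside Pmepa1. After bleomycin in vehicle lungs 8 of 10 rose and none fell, where 20.6% of all genes rose. With saracatinib in bleomycin lungs 8 of 10 fell and none rose, where 8.71% of all genes fell. Cthrc1, for example, was at 2.77 ± 0.29 and -2.05 ± 0.28. Their summed level was 744 to 1073 CPM in saline vehicle, 2277 to 5064 CPM in bleomycin vehicle and 1012 to 1765 CPM in bleomycin saracatinib lungs, with none at 0. After Ad-TGF-β1 in vehicle lungs 5 of 9 tested rose (11.5% of all genes did) and none fell. The sums were 366 to 698 CPM with empty vector and 783 to 1176 CPM with Ad-TGF-β1. Under saracatinib 1 of 9 rose after Ad-TGF-β1 (2.21% of all genes did), where Pmepa1 was called as well. In the difference between the injuries 6 of 10 were higher for bleomycin (8.64% of all genes were), with a median of 2.26, where Pmepa1 was not called. A list of 12 other fibroblast genes went otherwise. After bleomycin in vehicle lungs 8 were lower (20.3% of all genes were) and 2 higher (median -0.72). With saracatinib in bleomycin lungs 4 were higher (5.31% of all genes were) and 2 lower (median 0.34). Slc7a10 (-4.23 and 2.41) and Inmt (-2.16 and 1.46) were among its lower and then higher genes, and the collagen gene Col1a2 (1.27 and -1.08) among the others. The part of these cells in the Pmepa1 result was not tested. Macrophage genes also rose in 8 of 10 cases after each injury in vehicle lungs, and 7 of 10 fell with saracatinib in bleomycin lungs, beside the same shares of all genes.

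Bambi, a pseudoreceptor that resembles type I receptors but lacks the kinase, had 10.7, 11.0, 11.2, 13.2 and 14.6 CPM in saline vehicle lungs and 5.39, 7.14, 7.50, 7.77 and 8.36 CPM in bleomycin vehicle lungs. Every bleomycin value was below every saline value, and Bambi fell (log2 fold change -0.78 ± 0.15, edgeR adjusted p = 0.000387). Bleomycin saracatinib lungs held 7.76, 8.94, 9.90, 11.0 and 14.7 CPM and overlapped both. Saracatinib raised Bambi there by 0.54 ± 0.15 (adjusted p = 0.0212), a call lost without bleomycin saracatinib library 2 (0.39, adjusted p = 0.0790) or in a fit of only the compared groups (0.53, adjusted p = 0.0696). In saline lungs the saracatinib effect had a 95% interval from -0.30 to 0.30 (adjusted p = 0.999), and the interaction was 0.54 ± 0.21 (adjusted p = 0.167). In the adenoviral model Bambi ranged from 10.0 to 16.3 CPM over all 20 libraries, and the Ad-TGF-β1 effect was -0.01 ± 0.13 (adjusted p = 0.972), with a 95% interval from -0.29 to 0.27.

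Injury effects were then compared between the models in 1 fit of all 40 libraries. The difference, bleomycin effect minus Ad-TGF-β1 effect in vehicle lungs, was called for 15.1% of all 19529 genes and for 4 of the 9, 2 above 0 (8.64% of all genes) and 2 below it (6.47%). Tgif1 (0.77 ± 0.13, edgeR adjusted p = 0.00014) and Smurf1 (0.24 ± 0.08, adjusted p = 0.04) were raised more by bleomycin. Bambi (-0.76 ± 0.20, adjusted p = 0.00926) and Smurf2 (-0.55 ± 0.17, adjusted p = 0.0268) were lowered relative to Ad-TGF-β1. With the endothelial covariate neither Bambi (-0.49, adjusted p = 0.0914) nor Smurf2 (-0.12, adjusted p = 0.287) was called. Smurf2 was also lost without saline vehicle library 1 (-0.47, adjusted p = 0.0627) or empty-vector vehicle library 3 (-0.51, adjusted p = 0.0523). Smurf1 was lost in 14 of 20 fits without 1 library, all but those without bleomycin vehicle library 1 or 2, saline vehicle library 1, 4 or 5, or Ad-TGF-β1 vehicle library 1, with values from 0.17 to 0.24 and adjusted p up to 0.119. It was also lost without the low-count filter (0.22, adjusted p = 0.155), in limma voom (0.19, adjusted p = 0.0557), without the most distant libraries (0.23, adjusted p = 0.0742) and in a fit of only the compared groups (0.25, adjusted p = 0.0809).

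Smad6 differed between the models by -1.01 ± 0.41 (edgeR adjusted p = 0.0947) and was called without bleomycin vehicle library 3 (-1.22, adjusted p = 0.0495) or empty-vector vehicle library 1 (-1.18, adjusted p = 0.0435), and in a fit of only the compared groups (-0.996, adjusted p = 0.0452). Smad7 differed by -0.55 ± 0.25 (adjusted p = 0.126). Both were called by limma voom (-1.46, adjusted p = 0.00446, and -0.79, adjusted p = 0.00849) and without the most distant libraries (-1.49, adjusted p = 0.0141, and -0.89, adjusted p = 0.00703). The libraries left out include empty-vector vehicle libraries 1 and 5, the highest of their group for both genes, and saline vehicle library 5, the lowest of its group for both. The difference for Pmepa1 was 0.05 ± 0.20, with a 95% interval from -0.37 to 0.46, and for Skil 0.06 ± 0.20, from -0.34 to 0.47. The saracatinib effect in injured lungs differed between the models for 2.46% of all genes (1.41% below 0) and for 1 of the 9, Pmepa1, at -0.73 ± 0.20 (adjusted p = 0.0468). That call was lost in 13 of 20 fits without 1 library, with values from -0.77 to -0.54 and adjusted p up to 0.148 (without bleomycin vehicle library 3), and in limma voom (-0.54, adjusted p = 0.0634), with the endothelial covariate, without the low-count filter and in a fit of only the compared groups. It held without bleomycin vehicle library 1, 4 or 5, bleomycin saracatinib library 1 or 4, Ad-TGF-β1 vehicle library 2 or Ad-TGF-β1 saracatinib library 4. The models also differ in route, agent and control, and these cannot be told apart here.

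The other genes of the pathway were followed upstream and downstream of the 9. In vehicle lungs 20.6% of all genes rose and 20.3% fell after bleomycin, and 11.5% rose after Ad-TGF-β1. Saracatinib in bleomycin lungs called 14.0% of all genes. All 3 TGF-beta ligand genes rose after bleomycin in vehicle lungs, Tgfb1 by 0.60 ± 0.14, Tgfb2 by 0.49 ± 0.09 and Tgfb3 by 0.38 ± 0.11. In Ad-TGF-β1 vehicle lungs 2 of 3 rose, Tgfb1 and Tgfb2 (0.57 ± 0.08). Of the 5 receptor genes, the kinase receptors Tgfbr1 (0.77 ± 0.11) and Tgfbr2 (0.72 ± 0.10) rose after bleomycin, and the coreceptors Tgfbr3 (-0.81 ± 0.16) and Eng (-0.66 ± 0.20) and the endothelial receptor Acvrl1 (-0.60 ± 0.21) fell. After Ad-TGF-β1, Tgfbr1 (0.53 ± 0.08) and Tgfbr2 (0.56 ± 0.08) rose and no receptor of the list fell. With saracatinib in bleomycin lungs Tgfbr1 (-0.50 ± 0.11) and Tgfbr2 (-0.37 ± 0.10) fell, Tgfbr3 (0.50 ± 0.16) rose and 1 of the ligands, Tgfb2 (-0.28 ± 0.09), fell.

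Most genes known to be induced by TGF-beta rose with bleomycin. Of 16 such targets 13 rose (20.6% of all genes did) and 1 fell after bleomycin in vehicle lungs, with a median of 1.26. With saracatinib in bleomycin lungs 10 fell (8.71% of all genes did) and none rose, with a median of -0.70. The activin chain gene Inhba went by 2.49 ± 0.40 and -2.03 ± 0.39, the fibronectin gene Fn1 by 2.27 ± 0.27 and -1.32 ± 0.26, and the collagen gene Col1a1 by 1.71 ± 0.22 and -1.40 ± 0.22. After Ad-TGF-β1 in vehicle lungs 8 rose (11.5% of all genes did) and 1 fell, led by Ltbp2 (1.67 ± 0.15), which encodes a binding protein of latent TGF-beta. Median changes over all genes were between -0.03 and 0.01 in these 3 comparisons. Ltbp2 is also in the activated fibroblast list, and those cells also make the collagen and fibronectin of this one.

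Targets of BMP signalling, the pathway on which Smad6 mainly acts, differed in number of calls by comparison. Of 8 tested, Id2 (0.89 ± 0.15) rose and Id4 (-0.84 ± 0.18) fell after bleomycin in vehicle lungs (40.9% of all genes called). For saracatinib 0 were called by edgeR in saline or bleomycin lungs (0.00531% and 14.0% of all genes called). Their summed level was 214 to 275 CPM in saline vehicle, 82.1 to 162 CPM in saline saracatinib and 109 to 283 CPM in bleomycin saracatinib lungs. As with Smad6 and Smad7, bleomycin saracatinib libraries 1 (109 CPM) and 3 (111 CPM) were the low ones, while libraries 2, 4 and 5 lay between 248 and 283 CPM. The BMP target gene Id3 had 60.6, 73.6, 75.1, 93.4 and 95.0 CPM in saline vehicle and 10.7, 17.5, 19.7, 25.1 and 38.0 CPM in saline saracatinib lungs, with no overlap (log2 fold change -1.82 ± 0.37, edgeR adjusted p = 0.184). With empty vector, mean Id3 was 60.2 ± 14.1 CPM under vehicle and 59.7 ± 5.91 CPM under saracatinib (SD, n = 5). Under saracatinib 4 of the 8 were called between bleomycin and saline lungs, where 16.0% of all genes were: Id3 (1.46 ± 0.37), Atoh8 (0.90 ± 0.25) and Id2 (1.01 ± 0.15) were higher and Id4 (-0.73 ± 0.18) lower in bleomycin lungs. Of the 4 BMP receptor genes, Acvr1 (0.23 ± 0.06) rose and Bmpr1b (-0.82 ± 0.27) fell after bleomycin in vehicle lungs.

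Receptor-regulated SMADs and Smad4 carry the signal itself. Of these 6 genes 3 were called after bleomycin in vehicle lungs, where 40.9% of all genes were. Smad1 (0.43 ± 0.10) and Smad5 (0.19 ± 0.05) rose and Smad9 (-0.81 ± 0.29) fell, all of them BMP-responsive SMADs. None of the 6 was called by edgeR after Ad-TGF-β1, and Smad5 (-0.18 ± 0.05) fell with saracatinib in bleomycin lungs. Among 20 other genes of SMAD turnover and corepression, 3 rose and 2 fell after bleomycin, with a median of 0.01. The membrane inhibitor gene Ldlrad4, a relative of Pmepa1, rose by 0.21 ± 0.06, and by 0.30 ± 0.06 after Ad-TGF-β1. There 4 of the 20 rose and 1 fell, where 25.8% of all genes were called, so the list was near the share of all genes. Strap, whose product steadies Smad7 at receptors, rose by 0.32 ± 0.08 after bleomycin and fell with saracatinib in those lungs (-0.30 ± 0.08).

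Levels were next ordered over the 8 groups, taking neighbours as distinct where their means differed by more than the larger of their SDs. This rule describes neighbours in the order only and is no test, so a pair that edgeR called need not be distinct by it. Steps between groups of different models also carry the differences in route, agent and control, which cannot be told apart here. Smad6 gave no distinct neighbours, its means rising from 73.3 ± 17.0 CPM in saline saracatinib to 161 ± 40.8 CPM in saline vehicle lungs. Its largest step, 49.9 CPM, led from bleomycin saracatinib (86.3 ± 55.3 CPM) to Ad-TGF-β1 saracatinib lungs (136 ± 17.5 CPM). That step was smaller than the larger SD. Smad7 had a single step, between saline saracatinib lungs (95.5 ± 20.5 CPM) and all others (133 ± 31.3 CPM and above). Ski, lowest with empty vector and vehicle (217 ± 22.1 CPM) and highest with bleomycin and vehicle (278 ± 19.0 CPM), had none, and neither had Smurf2, lowest with bleomycin and vehicle (142 ± 9.68 CPM) and highest with Ad-TGF-β1 and vehicle (189.7 ± 11.6 CPM). Skil had 3 steps, from saline saracatinib (68.9 ± 7.20 CPM) to bleomycin saracatinib (98.7 ± 8.67 CPM), to saline vehicle (117 ± 17.7 CPM) and to the adenoviral groups and bleomycin vehicle (means from 140.4 to 193 CPM).

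Pmepa1 rose from saline saracatinib (46.7 ± 5.27 CPM) to the empty-vector groups (means 59.5 and 60.8 CPM), and then to saline vehicle and bleomycin saracatinib lungs (67.8 ± 6.96 and 75.6 ± 17.3 CPM). The last step led to Ad-TGF-β1 saracatinib, Ad-TGF-β1 vehicle and bleomycin vehicle lungs (106 ± 10.1, 127 ± 24.1 and 150.3 ± 43.9 CPM), which were not distinct from each other in that order. Tgif1 stood apart in bleomycin saracatinib (33.4 ± 3.08 CPM) and again in bleomycin vehicle lungs (41.5 ± 5.54 CPM), above 6 groups with means from 23.5 to 28.1 CPM. Bambi stood apart in bleomycin vehicle lungs alone (7.23 ± 1.12 CPM), below means from 10.5 to 13.3 CPM. Smurf1 had 1 step, between saline vehicle (89.2 ± 4.30 CPM) and saline saracatinib lungs (94.5 ± 3.10 CPM). These groups overlapped, and edgeR did not call the saracatinib effect between them (0.08 ± 0.06, adjusted p = 0.772), while it called the rise of Smurf1 after bleomycin in vehicle lungs. Here too, steps between groups of different models carry the differences between the models.

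The members also varied within groups, and not as a single set. With group means removed from log2 CPM, 13 of the 36 pairs had a Pearson r over 0.5 and 2 had one under -0.5 over the 40 libraries. In both models taken alone, 7 pairs were over 0.5. Smad6 and Smad7 had the highest r (0.89), followed by Ski and Smurf2 (0.81), Smad6 and Ski (0.78) and Smad7 and Ski (0.78). Pmepa1 and Tgif1 fell outside this block, with r of -0.11 and -0.38 to Smad6 and 0.52 to each other, the last 0.76 in the bleomycin model and 0.09 in the adenoviral one. These values describe libraries that share tissue composition and depth, and carry no test.

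**Figure D4:**
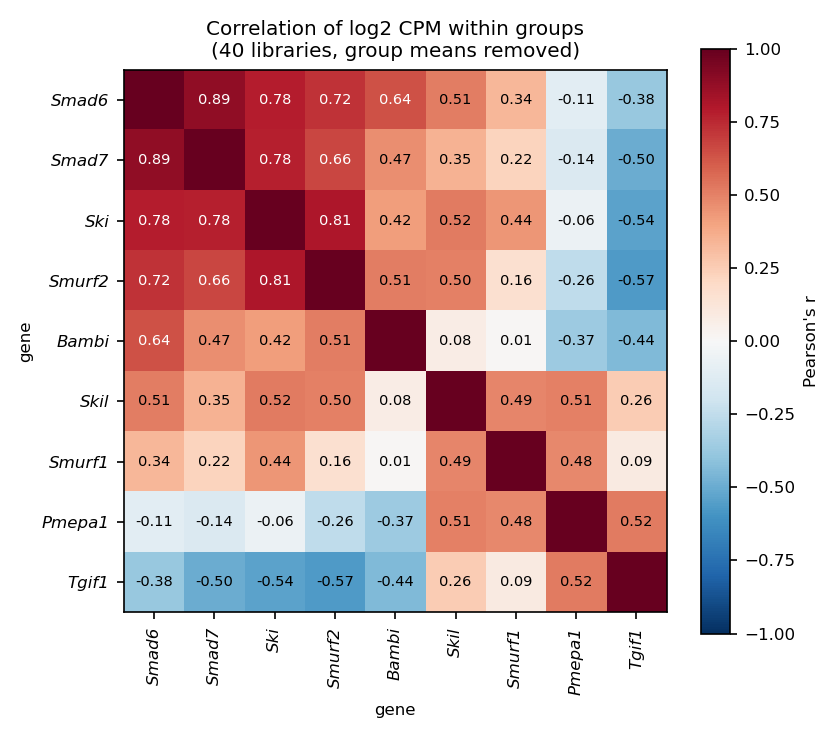
Pearson's r between each pair of the 9 genes (both axes) in log2 CPM over 40 libraries after removal of group means, with colour from -1 (blue) to 1 (red). Smad6, Smad7, Ski and Smurf2 form a block with r from 0.66 to 0.89, and Tgif1 is negative with each of them (-0.38 to -0.57).

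The same within-group values were set beside the gene lists. Smurf2 followed the mean log2 CPM of the endothelial list with r of 0.95 over 40 libraries, and Ski with 0.86. Both also followed the TGF-beta receptor list, which holds Eng and Acvrl1 (0.94 and 0.88), and the alveolar epithelium list (0.80 and 0.61). Both ran against the ciliated list (-0.74 and -0.71). Smad7 followed the BMP targets with 0.91 and Smad6 with 0.87. Pmepa1 followed the TGF-beta induced targets with 0.69, the TGF-beta ligands with 0.66 and the activated fibroblast list with 0.65, and Skil the induced targets with 0.67. Tgif1 had its highest value with transitional alveolar epithelium (0.59), and Bambi with the endothelial list (0.52).

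For each member the genes of the most similar pattern were taken by the lower of its 2 correlations over the 20 libraries of each model, among 17158 genes with at least 1 CPM. Group differences enter these values, given below for the bleomycin and then the adenoviral model. Smad7 was most like Id3 (r = 0.92 and 0.89) and the endothelial transcription factor gene Sox18 (0.87 and 0.88). Smad6 was most like Pcnx (0.77 and 0.80) and Acvrl1 (0.74 and 0.77). Ski was most like Hip1 (0.91 and 0.90) and the ephrin receptor gene Ephb4 (0.89 and 0.89), and Smurf2 like Eng (0.94 and 0.93) and Acvrl1 (0.91 and 0.93). Pmepa1 was closest to the growth factor gene Igf1 (0.96 and 0.95) and the elastin gene Eln (0.96 and 0.95), and Skil to Tmem263 (0.84 and 0.88) and the lysyl hydroxylase gene Plod1 (0.84 and 0.87). Tgif1 was closest to the DNA repair gene Brca1 (0.83 and 0.85) and the T cell checkpoint gene Ctla4 (0.92 and 0.82), Smurf1 to 2510039O18Rik (0.80 and 0.78) and Chmp4b (0.84 and 0.73), and Bambi to Fmo2 (0.86 and 0.78) and Slc19a3 (0.82 and 0.75).

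**Figure D5:**
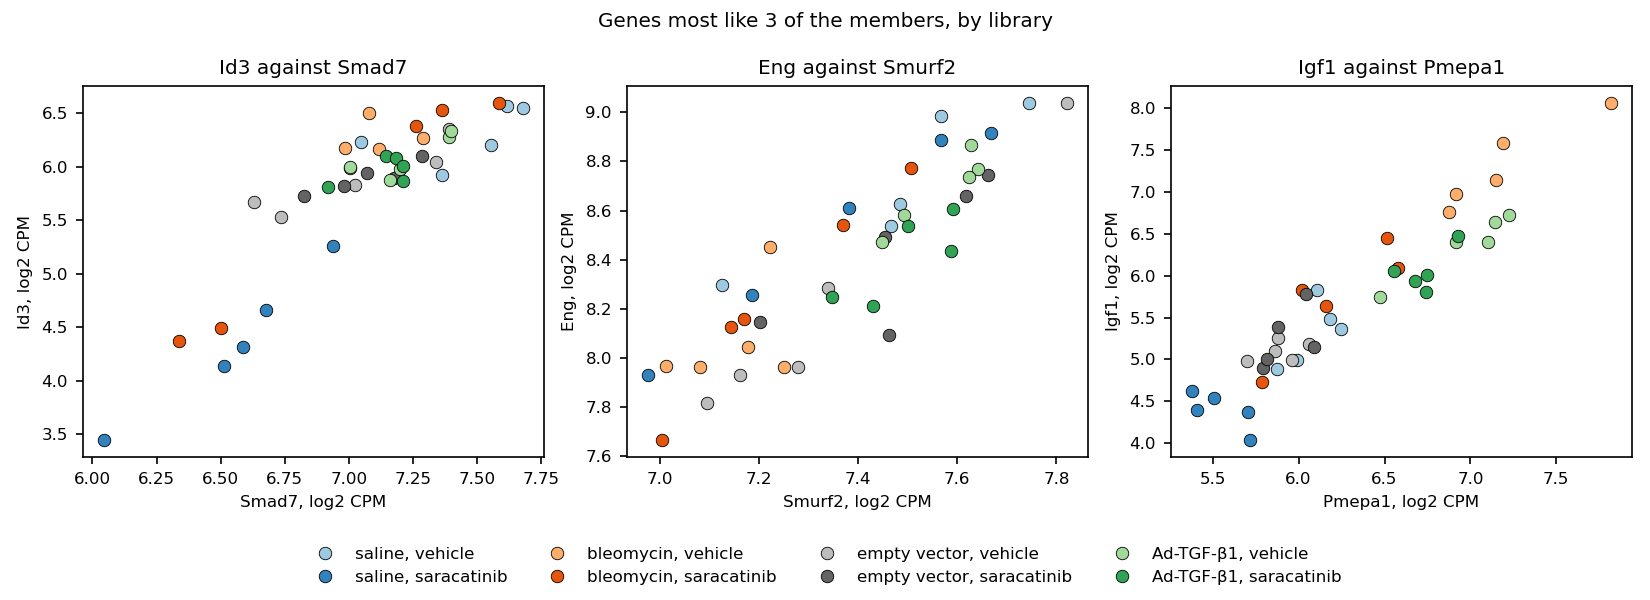
Log2 CPM of Id3 against Smad7, Eng against Smurf2 and Igf1 against Pmepa1, with 1 point per library coloured by group. The 5 saline saracatinib libraries and bleomycin saracatinib libraries 1 and 3 lie at the lower left of the Smad7 panel, and bleomycin vehicle library 3 at the upper right of the Pmepa1 panel.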

How the data were processed

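RNA from left lungs was depleted of ribosomal RNA and made into stranded libraries, per the labels' protocols. The deposited values are raw counts per gene, made by the authors with STAR 2.6.1d, Picard and Subread 1.6.3 (featureCounts), per the submitters' processing notes, which also name edgeR and the builds mm9 and GRCm38. No source used here gives the strand setting. Symbols were looked up in GENCODE M21 by the files' Ensembl identifiers, of which 55450 of 55536 were found there. The authors' normalized tables were not used.

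Counts were tested with edgeR 4.0.16 in R 4.3.3: filterByExpr by group, TMM scaling, 1 coefficient per group, and quasi-likelihood tests with Benjamini-Hochberg adjustment over all genes. Each model was fitted on its 20 libraries (18846 and 18834 genes tested), and models were compared in a fit of all 40. Log2 CPM values use a prior count of 2. Depth ranged from 8812233 to 17336972 counts. The 80 pairs of libraries within groups differed beyond counting noise (chi-square per degree of freedom from 4.62 to 61.0 over genes with at least 20 counts), so none was counted as a duplicate. Alternatives were DESeq2 1.42.0, limma 3.58.1 (voom with quality weights per library, called limma voom here), DESeq2 size factors, no filter, an endothelial covariate, fits of the compared groups alone, and leaving out libraries. On simulated data, 70% and 83% of genes changed 1.5- and 2-fold were recovered in the bleomycin design (18669 genes), and 47% and 80% in the Ad-TGF-β1 design (18708 genes). Only 200 genes were changed in each, and 8 and 4 unchanged genes were called. The real comparisons called 7716 and 4865 genes. The adjustment depends on the share of changed genes, so these rates do not carry over to them. The 9 genes and the 18 gene lists were chosen with earlier results of these data known. Genes outside the 9 were named by rule: the list members with the largest called changes, and the 2 genes with the most similar pattern to each member.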

Additional observations from a re-analysis of the deposited data

Results flagged for a closer look

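In 9 of 72 group and gene combinations, the gap between an extreme library and its nearest neighbour took up over 0.71 of the group's range, where chance gives about 1 in 20. Of these 9, 4 come from bleomycin vehicle library 3, the highest of its group for Smad6 (114 CPM), Ski (311), Skil (251) and Pmepa1 (226 CPM). The others are Smad7 in Ad-TGF-β1 saracatinib library 5 (121 CPM, lowest), Smurf1 in empty-vector vehicle library 3 (80.2 CPM, lowest) and Smurf2 in empty-vector vehicle library 1 (226 CPM, highest). For Tgif1 they are bleomycin saracatinib library 2 (27.9 CPM, lowest) and empty-vector saracatinib library 3 (27.5 CPM, highest).

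The injury effects of the models differed by a test of the difference for Smurf1 (0.24), Smurf2 (-0.55), Tgif1 (0.77) and Bambi (-0.76), each the log2 effect of bleomycin minus that of Ad-TGF-β1 in vehicle lungs. The saracatinib effect in injured lungs differed for Pmepa1 (-0.73, bleomycin minus Ad-TGF-β1). As given above, the Smurf1 and Pmepa1 calls were lost in most fits without 1 library, and Smurf2 and Bambi were not called with the endothelial covariate.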

How the results depend on the processing

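No called effect of a member changed sign under any alternative: of member effects under settings other than leaving out 1 library, 687 kept their side of the threshold, 25 lost and 25 gained a call, and with 1 library left out 1371, 60 and 9 did so. Counts below are members, then all genes, called at an edgeR adjusted p under 0.05 unless another tool is named, and only counts that moved by over 1.5 times are given. As tested they were 7 and 7716 for bleomycin in vehicle lungs, 4 and 2643 for saracatinib in bleomycin lungs, 0 and 1 for saracatinib in saline lungs, 3 and 3011 for bleomycin under saracatinib, 0 and 199 for the bleomycin interaction, 3 and 4865 for Ad-TGF-β1 in vehicle lungs, 0 and 17 for saracatinib in Ad-TGF-β1 lungs, 0 and 1 in empty-vector lungs, 1 and 485 for Ad-TGF-β1 under saracatinib, 0 and 0 for the Ad-TGF-β1 interaction, 4 and 2951 for the difference in injury and 1 and 481 for that in saracatinib effect.

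With the endothelial covariate, saracatinib called 4157 genes in bleomycin lungs, 3 members and 21 genes in saline lungs and 0 genes in empty-vector lungs. Bleomycin under saracatinib gave 4943 genes, the bleomycin interaction 1 member and 583 genes, Ad-TGF-β1 2834 genes in vehicle lungs and 2 members and 958 genes under saracatinib, the difference in injury 2 members and that in saracatinib effect 0. Fits of only the compared groups gave 2 members for saracatinib in bleomycin lungs, 0 genes in empty-vector lungs and 0 members for the difference in saracatinib effect, and could not be run for the interactions. Without the low-count filter, saracatinib called 3 genes in saline and 0 in empty-vector lungs, and its difference between models 0 members and 219 genes. DESeq2 called 2 members and 47 genes for saracatinib in saline lungs, 52 genes in Ad-TGF-β1 and 7 in empty-vector lungs, 2 members and 846 genes for the bleomycin interaction, 793 genes for Ad-TGF-β1 under saracatinib, 1 for its interaction and 754 for the difference in saracatinib effect. Limma voom called 1 member and 9 genes for saracatinib in saline lungs, 101 genes in Ad-TGF-β1 lungs, 415 for the bleomycin and 413 for the Ad-TGF-β1 interaction, 5 members for Ad-TGF-β1 in vehicle lungs, 959 genes for it under saracatinib, 4756 for the difference in injury and 0 members for that in saracatinib effect. Without the pair of libraries most distant from their groups in each model, saracatinib called 0 genes in saline and 130 in empty-vector lungs, the bleomycin interaction 46 and the Ad-TGF-β1 interaction 254, Ad-TGF-β1 5 members in vehicle lungs and 2 members and 941 genes under saracatinib, and the difference in saracatinib effect 753.

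With each library left out in turn, bleomycin in vehicle lungs gave 5 to 7 members and 6558 to 7878 genes, saracatinib in bleomycin lungs 2 to 4 and 1326 to 2985, in saline lungs 0 to 4 genes, and bleomycin under saracatinib 1 to 3 and 1672 to 3356. The bleomycin interaction gave 0 to 2 and 35 to 583, Ad-TGF-β1 in vehicle lungs 2 to 4 and 3314 to 7127, and under saracatinib 181 to 665 genes. Saracatinib gave 0 to 14 genes in Ad-TGF-β1 lungs and 0 to 1 members and 0 to 1112 genes in empty-vector lungs, and the Ad-TGF-β1 interaction 0 to 1190 genes. The difference in injury gave 2 to 4 and 2245 to 3849, and that in saracatinib effect 0 to 1 and 106 to 803. The cause of these moves was not tested. Depth limits Bambi most, with 76 to 202 counts per library. No paired analysis was possible because the replicate numbers only name libraries in the order of the records and pair no samples.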
